A study of Saccharomyces cerevisiae with 24 samples.

Results

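The genes described here are 31 genes of peroxisome biogenesis and division measured by array in the budding yeast Saccharomyces cerevisiae, out of 5449 genes with a named probe set. The rule uses gene names and no measured value. A gene was taken if its symbol is PEX followed by digits, or if it is INP1, INP2, ANT1, VPS1, FIS1 or DNM1. Each of the 31 genes is read by 1 probe set, all 31 were tested, and none lies over another annotated gene.

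Peroxisomes are organelles bounded by a single membrane, and in budding yeast they are the only site of fatty acid beta-oxidation. Their matrix proteins are made in the cytosol, are bound there by receptors, pass a docking complex in the peroxisomal membrane, and are released inside. The receptors are then marked with ubiquitin and pulled back to the cytosol by ATPases. Peroxisomes multiply by growth and division and by formation from the endoplasmic reticulum, and part of them is handed to the bud at each division. Yeast is known to form few peroxisomes in glucose and many on oleate, where the factors Oaf1, Pip2 and Adr1 switch on the enzymes of beta-oxidation and some of the biogenesis genes. Snf1, the yeast AMP-activated protein kinase, is known to act upstream of Adr1 when glucose runs out, and Tor1 is a kinase of the complex TORC1, which ties growth to the supply of nitrogen and other nutrients.

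The series compared chemostat cultures of 3 deletion strains, snf1Δtor1Δ, snf1Δ and tor1Δ, and of a reference strain labelled as wild type, each grown under limitation by ammonia (N-lim) and by glucose (C-lim). Each of the 8 groups holds 3 arrays, which the labels call biological replicates. All were aerobic steady-state cultures diluted at 0.1 per hour and kept at pH 5.0 and 30 °C. The N-lim medium held 1 g/L ammonium sulfate, and the C-lim medium had glucose at 10 g/L. The labels used here name no strain background, no deletion construct and no number of independent isolates per strain. RNA came from whole cultures, so a lower value in every cell and a lower value in some of the cells cannot be told apart.

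The values are log2 probe set intensities and ran from 2.02 to 14.31. The median of an array lay between 7.80 and 7.99, and the correlation across genes between 2 arrays of a group lay between 0.993 and 0.999. The deleted genes followed the labels. SNF1 read 2.15 in each snf1Δ and snf1Δtor1Δ group, against means between 8.75 and 8.95 in the other groups, and TOR1 read 2.27 in each tor1Δ and snf1Δtor1Δ group, against means between 6.94 and 7.86 in the others. Group means under log2 3 are called the floor here, and PEX18 is the only one of the 31 genes with such a mean. The cultures also differed in mating type genes. All 7 a-specific genes were higher in N-lim than in C-lim in the reference strain and higher in snf1Δ than in the reference in C-lim, and log2 of their summed level was 14.83 to 14.92 in reference N-lim, 13.71 to 13.81 in snf1Δ C-lim and 12.04 to 12.16 in reference C-lim. For the 5 alpha-specific genes it was 11.999 to 12.17 in reference N-lim, 7.91 to 7.95 in snf1Δ C-lim and 7.18 to 7.40 in reference C-lim, with MF(ALPHA)2 at the floor in all groups. In N-lim it was lower in the deletion strains, at 9.93 to 10.10 in snf1Δtor1Δ, 9.87 to 10.27 in snf1Δ and 11.42 to 11.52 in tor1Δ. The sum in reference N-lim is nearly that of MF(ALPHA)1 alone, which averaged 11.99 there. In the reference strain 4 of these 5 genes were higher in N-lim and STE3 was lower, by 0.58. In C-lim 2 of the 5 were higher in snf1Δ than in the reference and 3 did not pass the test. The part of mating type genes in the results below was not tested.

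The 31 genes differed widely in how much they moved over the 8 groups. The range of the group means was at least 1 on the log2 scale for 7 genes, with 3.79 for PEX18, 1.54 for PEX2, 1.48 for PEX27, 1.30 for PEX21, 1.24 for PEX28, 1.22 for PEX11 and 1.12 for ANT1. It was under 0.5 for 11 genes, with the smallest for PEX4 (0.20), PEX19 (0.27) and PEX30 (0.31). The median range was 0.614, against a median SD within groups of 0.103. Intensities of different probe sets cannot be compared as levels, so each gene is set only against itself.

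**Figure D1:**
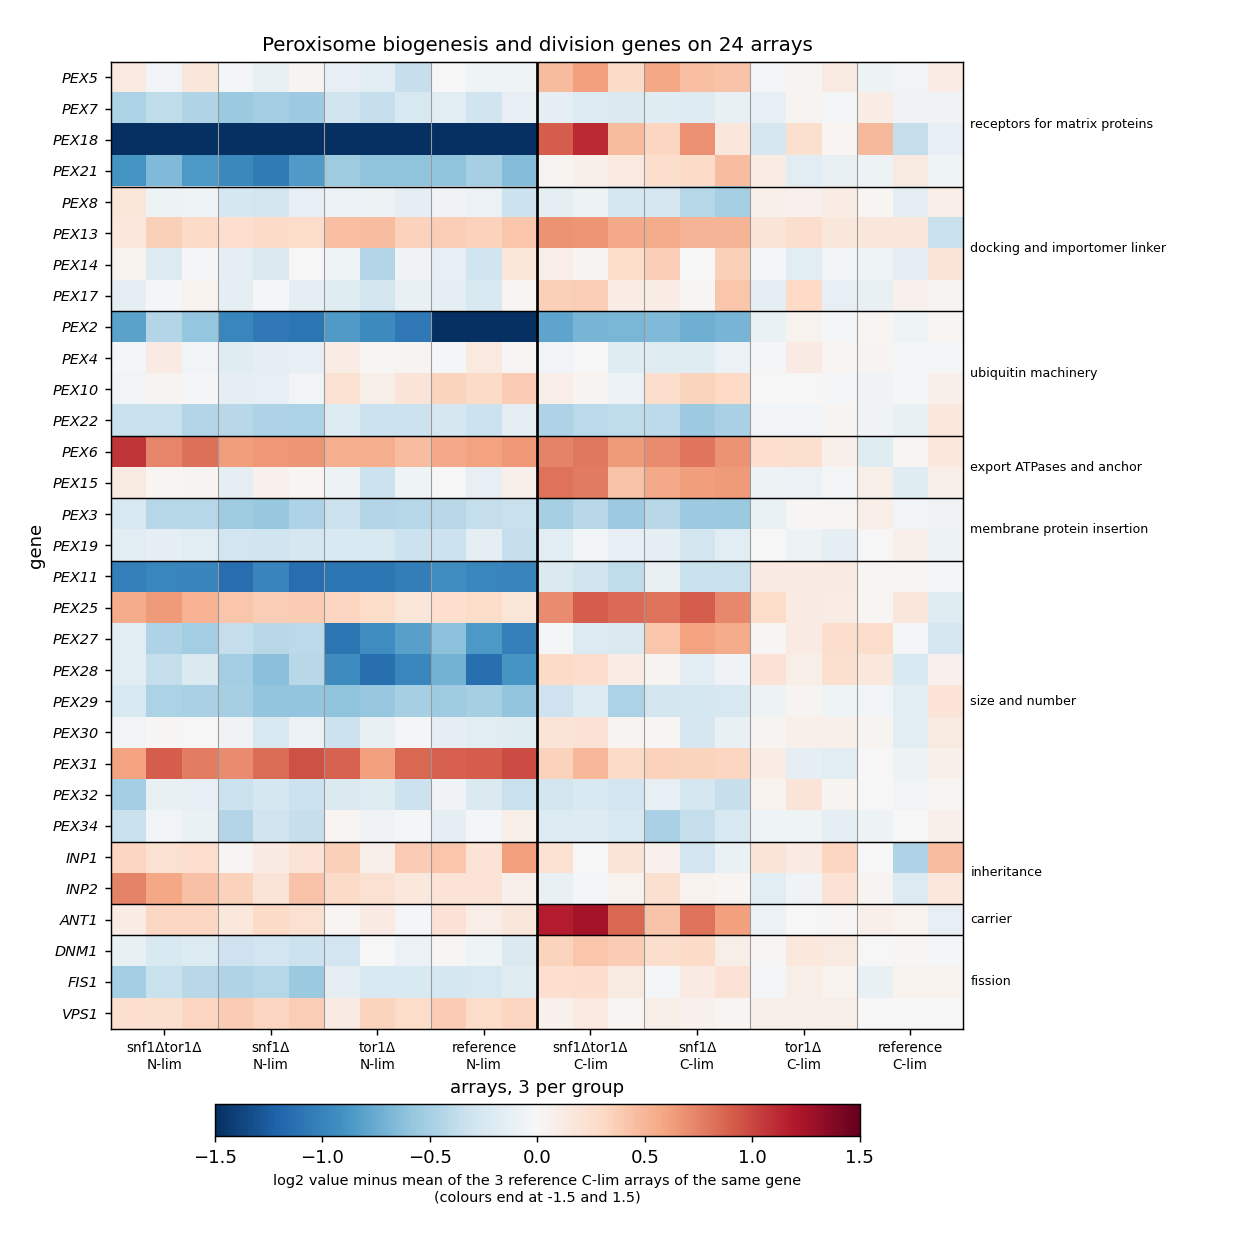
Heat map of the 31 genes (rows, grouped by role) on the 24 arrays (columns, 3 per group), with colour for the log2 value minus the mean of the 3 reference C-lim arrays of the same gene and colours ending at -1.5 and 1.5. PEX18 and PEX11 are blue on all 12 N-lim arrays, PEX31 is red on all 12, and PEX5, PEX6, PEX13, PEX15, PEX25 and ANT1 are red on the C-lim arrays of snf1Δtor1Δ and snf1Δ.

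The first comparison asked what the limiting nutrient did in the reference strain. With ammonia limiting, 12 of the 31 genes fell and 7 rose relative to glucose limitation. The genes that fell most were PEX18, PEX2, PEX11, PEX28 and PEX27, and those that rose most were PEX31 and PEX6. The 19 genes are 61.3% of the 31, and over all genes 67.2% passed the test, 41.5% higher and 25.7% lower. At a change of at least 1.5-fold there were 7 of the 31 genes, against 30.7% of all genes. The arrays of the 2 media did not overlap for 20 of the 31 genes, against 67.4% of all genes. The median log2 difference of the 31 genes was -0.12, and that of all genes was 0.08.

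Among the 4 receptors for matrix proteins, 3 fell and PEX5 did not pass the test. PEX18 (YHR160C) encodes a co-receptor that works with Pex7 on proteins carrying the second type of peroxisomal targeting signal. PEX18 read 2.87, 2.84 and 3.22 on the N-lim arrays of the reference strain, against 6.30, 5.46 and 5.68 on its C-lim arrays. The N-lim arrays lay near the lower end of the scale and far below the C-lim arrays, so the difference is a bound, with PEX18 at least 7.03-fold lower in N-lim (adjusted p = 2.03e-09). PEX21 (YGR239C), the paralogous co-receptor, read 7.95, 8.05 and 7.90 in N-lim and 8.48, 8.68 and 8.49 in C-lim. It fell by 0.58 ± 0.08 on the log2 scale (SE, n = 3 each, limma adjusted p = 4.33e-06), and its groups did not overlap. PEX7, the receptor that both co-receptors serve, fell by 0.20 ± 0.05, with a difference of -0.30 once arrays were centred on their medians, whereas PEX5, the receptor for the first type of signal, differed by -0.04 ± 0.08 (adjusted p = 0.678).

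The ubiquitin machinery and the export complex moved in both directions. PEX2 (YJL210W), one of the RING finger ubiquitin ligases of the peroxisomal membrane, read 7.91, 7.88 and 7.91 in reference N-lim and 9.48, 9.38 and 9.48 in reference C-lim. All N-lim arrays were far below all C-lim arrays, and PEX2 fell by 1.54 ± 0.07 (adjusted p = 9.67e-13), a 2.91-fold difference. PEX10, another RING finger ligase of the same complex, moved the other way and rose by 0.33 ± 0.05 (adjusted p = 8.3e-06). PEX22, the membrane anchor of the ubiquitin-conjugating enzyme Pex4, fell by 0.24 ± 0.06, and PEX4 itself differed by 0.04 ± 0.05 (adjusted p = 0.509). PEX6 (YNL329C), an ATPase that pulls receptors out of the membrane, read 7.16, 7.19 and 7.23 in N-lim and 6.40, 6.61 and 6.75 in C-lim. It rose by 0.61 ± 0.08 (adjusted p = 2.99e-06), while PEX15, its membrane anchor, differed by -0.02 ± 0.10 (adjusted p = 0.873).

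Among the 9 genes that set peroxisome size and number, 4 fell, 2 rose and 3 did not pass the test. PEX11 (YOL147C), a membrane protein that elongates peroxisomes before division, read 10.35, 10.29 and 10.28 in reference N-lim and 11.29, 11.30 and 11.24 in reference C-lim, with a difference of -0.97 ± 0.06 (adjusted p = 2.02e-11). PEX27 (YOR193W), of the same family, read 6.38, 6.13 and 5.97 in N-lim and 7.26, 6.98 and 6.74 in C-lim, with a difference of -0.84 ± 0.13 (adjusted p = 1.07e-05). PEX25, the third member of that family, moved against the other two and rose by 0.24 ± 0.07 (adjusted p = 0.00961), or 0.13 with an adjusted p of 0.149 once arrays were centred on their medians. PEX28 (YHR150W), which limits peroxisome number together with PEX29, read 6.07, 5.66 and 5.90 in N-lim and 6.94, 6.55 and 6.85 in C-lim. It fell by 0.91 ± 0.10 and PEX29 fell by 0.54 ± 0.08, and in both genes the groups did not overlap. PEX31 (YGR004W), of the family of PEX30 and PEX32, read 6.82, 6.84 and 6.90 in N-lim and 5.93, 5.84 and 5.997 in C-lim. It rose by 0.93 ± 0.09 (adjusted p = 4e-08), while PEX30 and PEX32 differed by -0.16 ± 0.08 (adjusted p = 0.101) and by -0.20 ± 0.09 (adjusted p = 0.0506).

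The other groups changed less. PEX3 and PEX19, which place proteins into the peroxisomal membrane, fell, with differences of -0.37 ± 0.06 and -0.27 ± 0.06. Of the 4 docking and linker genes only PEX13 passed the test, with 0.37 ± 0.09 (adjusted p = 0.00141), and PEX8, PEX14 and PEX17 differed by -0.15, -0.08 and -0.12. VPS1, for a dynamin-like GTPase of peroxisome fission, rose by 0.33 ± 0.05 and FIS1, for the anchor that recruits the second dynamin-like protein Dnm1, fell by 0.23 ± 0.06, while DNM1 differed by -0.09 ± 0.07 (adjusted p = 0.271). INP1, which holds peroxisomes in the mother cell, rose by 0.41 ± 0.16 (adjusted p = 0.0341). Its arrays overlapped, with 7.08, 6.87 and 7.28 in N-lim and 6.66, 6.20 and 7.13 in C-lim, and its adjusted p was 0.051 with the replicate number as a block, 0.0802 with median-centred arrays and 0.124 with renewed quantile normalization. Without 1 array, INP1 ran from 0.18 (adjusted p = 0.276, without C-lim replicate 10) to 0.64 (without C-lim replicate 11), and its call was also lost without C-lim replicate 9, N-lim replicate 9 or N-lim replicate 11. Without C-lim replicate 11 the PEX25 difference was 0.14 (adjusted p = 0.0814), the PEX13 difference was 0.21 and the PEX22 difference was -0.16. With arrays centred on their medians, which took the median of all genes to -0.03, 5 of the 31 genes were higher and 16 lower, and with renewed quantile normalization 6 were higher and 15 lower.

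**Figure D2:**
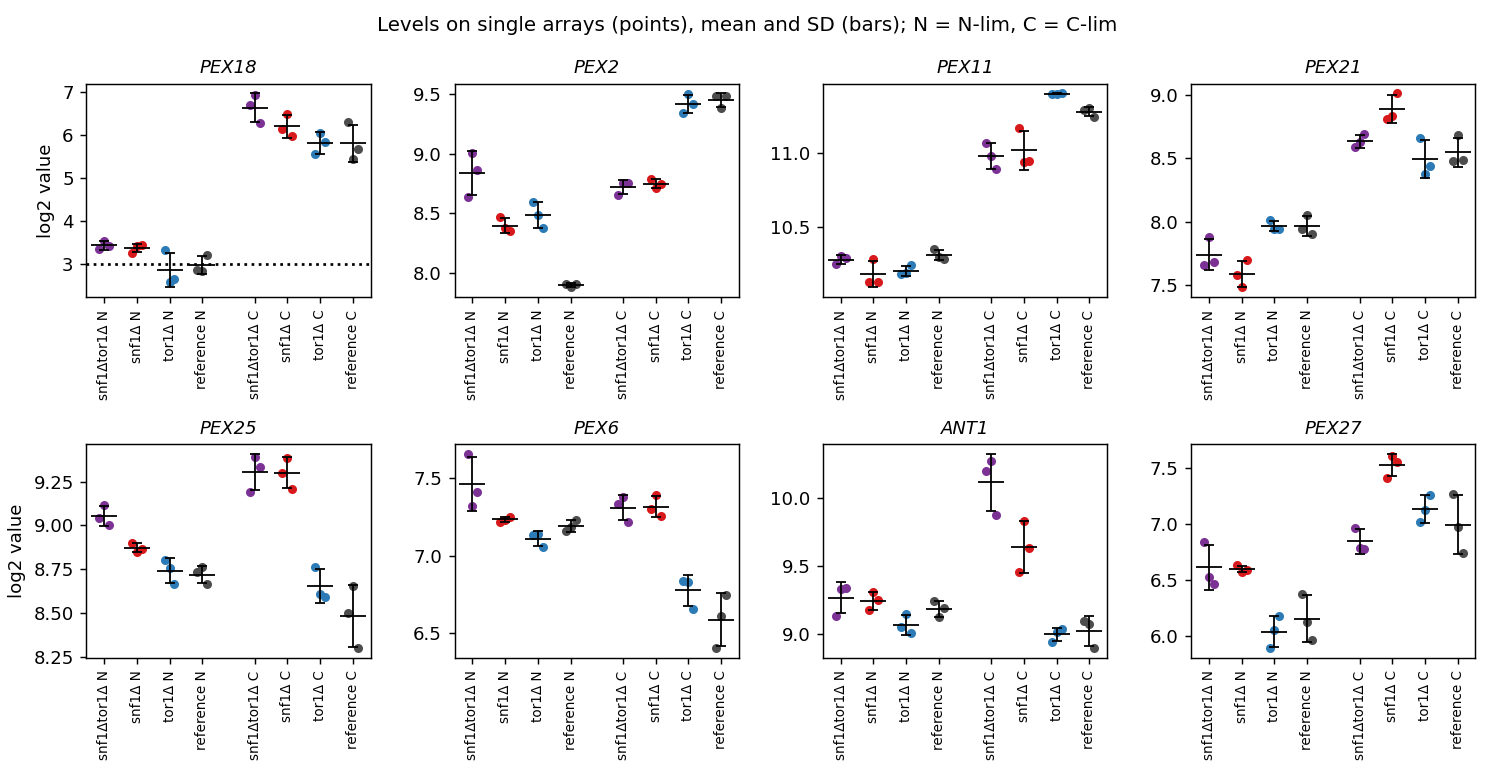
Log2 values of PEX18, PEX2, PEX11, PEX21, PEX25, PEX6, ANT1 and PEX27 on single arrays (points), with the mean and SD of each group of 3 (bars), N-lim groups left of C-lim groups and the floor of 3 as a dotted line in the PEX18 panel. The 3 reference N-lim arrays are the lowest of PEX2, the N-lim arrays of PEX18 sit between 2.59 and 3.54, and ANT1 is highest in snf1Δtor1Δ C-lim.

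The genes of the organelle's enzymes went one way in the same comparison. All 15 genes for peroxisomal enzymes and fatty acid import fell in N-lim in the reference strain, with a median log2 difference of -2.69, which did not change when values under the floor were raised to it. CTA1, for the peroxisomal catalase, averaged 2.72 ± 0.20 in N-lim and 10.20 ± 0.19 in C-lim (SD, n = 3 each), which makes it at least 147-fold lower. FAA2, an acyl-CoA synthetase, FOX2, the multifunctional beta-oxidation enzyme, and IDP3, an isocitrate dehydrogenase, fell, with differences of -3.70, -3.49 and -3.21. Of the 4 regulators, OAF1, PIP2 and OAF3 rose by 0.56, 0.64 and 0.82, and ADR1 fell by 3.04. Of the 4 genes for the removal of peroxisomes by autophagy, ATG36, the receptor on the peroxisome, fell by 2.17 and ATG1, a kinase, fell by 1.08, while ATG8 and ATG11 did not pass the test. Of 4 partners in fission and inheritance, MDV1 and MYO2 rose by 0.38 and 0.87, CAF4 fell by 0.38 and NUM1 did not pass the test. Of 5 genes that shape the endoplasmic reticulum or its contacts, LDB16 rose by 0.28, and RTN2, YOP1 and RTN1 fell, with differences of -4.23, -0.29 and -0.12, with SEY1 not past the test. Of 3 genes of mitochondrial fusion, measured because Dnm1 and Fis1 also divide mitochondria, UGO1 fell by 0.23.

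**Figure D3:**
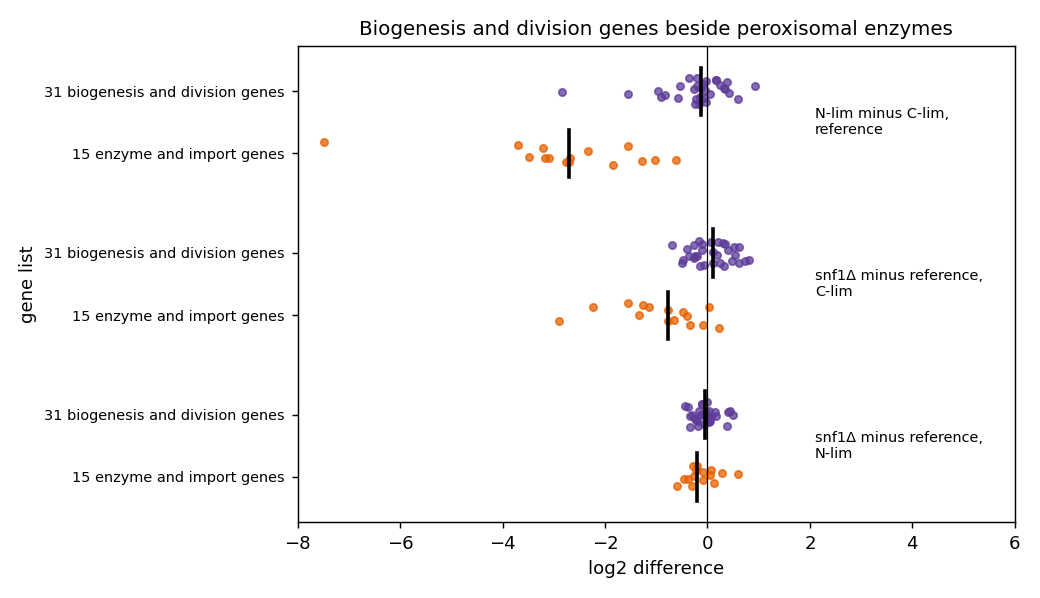
Log2 differences of the 31 biogenesis and division genes and of 15 genes for peroxisomal enzymes and fatty acid import (points, 1 per gene), with black bars at the medians, for N-lim minus C-lim in the reference strain and for snf1Δ minus reference in each medium. The medians in the top comparison are -0.12 for the biogenesis and division genes and -2.69 for the enzymes, and the leftmost enzyme is CTA1, whose N-lim value lies at the floor.

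The nutrient effect was also fitted within each deletion strain. In snf1Δ 2 of the 31 genes were higher in N-lim and 17 lower (61.3%, against 55.4% of all genes, of which 32.4% higher and 23% lower). In tor1Δ 4 were higher and 16 lower (64.5%, against 64.9% of all genes, of which 37.4% higher and 27.5% lower), and in snf1Δtor1Δ 3 were higher and 13 lower (51.6%, against 58.6% of all genes, of which 35.3% higher and 23.2% lower). PEX31 and VPS1 were higher and PEX18, PEX11, PEX21, PEX28, PEX7 and FIS1 lower in N-lim in all 4 strains. For VPS1 this rests in tor1Δ on a difference of 0.16 (adjusted p = 0.00428), which was 0.12 with arrays centred on their medians (adjusted p = 0.0511). With only the compared groups fitted it had an adjusted p of 0.0641. With the replicate number as a block it was 0.14, but there only 1 C-lim array of tor1Δ shares its number with another group. In snf1Δtor1Δ the VPS1 difference was 0.19, and 0.13 with median-centred arrays (adjusted p = 0.0453). PEX31 read 6.53, 6.84 and 6.70 in snf1Δtor1Δ N-lim, 6.64, 6.76 and 6.88 in snf1Δ N-lim and 6.81, 6.54 and 6.78 in tor1Δ N-lim, against 6.27, 6.42 and 6.21, 6.27, 6.25 and 6.25, and 6.04, 5.77 and 5.77 in C-lim of the same strains.

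PEX18 and PEX11 showed the nutrient difference in each strain. PEX18 read 3.34, 3.54 and 3.42 in snf1Δtor1Δ N-lim, 3.26, 3.43 and 3.43 in snf1Δ N-lim and 3.32, 2.59 and 2.66 in tor1Δ N-lim. On the C-lim arrays it read 6.72, 6.94 and 6.29 in snf1Δtor1Δ, 6.14, 6.50 and 5.98 in snf1Δ and 5.56, 6.06 and 5.85 in tor1Δ. No N-lim array of PEX18 came within 1 log2 unit of any C-lim array, and the log2 difference was -3.21 ± 0.22 in snf1Δtor1Δ and -2.84 ± 0.22 in snf1Δ. The N-lim means of these strains, 3.43 and 3.37, lay just above the floor, so low signal limits the size of these differences as well. In tor1Δ the N-lim mean was at the floor, and PEX18 was at least 7.06-fold lower. PEX11 read 10.25, 10.30 and 10.29 in snf1Δtor1Δ N-lim, 10.13, 10.28 and 10.13 in snf1Δ N-lim and 10.19, 10.19 and 10.24 in tor1Δ N-lim, against 11.06, 10.98 and 10.89, 11.16, 10.94 and 10.94, and 11.39, 11.40 and 11.40 in C-lim. These groups did not overlap, with differences of -0.70, -0.83 and -1.19.

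Other genes differed by medium in some strains. PEX21 fell by 1.30 ± 0.08 in snf1Δ (7.58, 7.49 and 7.70 in N-lim, against 8.81, 8.83 and 9.01 in C-lim) and fell by 0.89 in snf1Δtor1Δ, where it read 7.66, 7.88 and 7.69 in N-lim and 8.59, 8.63 and 8.69 in C-lim. PEX15, the anchor of the export ATPases, fell by 0.63 in snf1Δ (7.66, 7.87 and 7.83 against 8.37, 8.43 and 8.44) and fell by 0.61 in snf1Δtor1Δ (7.94, 7.83 and 7.84 against 8.62, 8.58 and 8.23). ANT1, the carrier that brings ATP into peroxisomes in exchange for AMP, fell by 0.85 in snf1Δtor1Δ, where it read 9.13, 9.33 and 9.34 in N-lim and 10.20, 10.27 and 9.88 in C-lim. It fell by 0.40 in snf1Δ and differed by 0.07 in tor1Δ and 0.16 in the reference strain. PEX27 fell by 0.92 in snf1Δ, with 6.63, 6.58 and 6.59 in N-lim and 7.41, 7.60 and 7.55 in C-lim. It fell by 1.09 in tor1Δ, with 5.90, 6.06 and 6.18 in N-lim and 7.02, 7.12 and 7.26 in C-lim, and differed by -0.23 ± 0.13 in snf1Δtor1Δ (adjusted p = 0.127). PEX28 read 5.84, 5.66 and 5.81 in tor1Δ N-lim and 6.998, 6.87 and 7.02 in tor1Δ C-lim, a difference of -1.19. The arrays of the 2 media did not overlap in any of these pairs except PEX27 in snf1Δtor1Δ and ANT1 in tor1Δ. In snf1Δtor1Δ the genes past 1.5-fold also held FIS1, with 9.05, 9.23 and 9.15 in N-lim against 9.81, 9.82 and 9.69 in C-lim, and INP2, the receptor for the myosin that carries peroxisomes to the bud, with 6.27, 6.10 and 5.96 against 5.42, 5.49 and 5.58. PEX2 fell by 0.93 in tor1Δ and fell by 0.35 in snf1Δ, and in snf1Δtor1Δ it differed by 0.11 ± 0.07 (adjusted p = 0.181).

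The next comparison asked what the loss of SNF1 did under glucose limitation. In snf1Δ 11 of the 31 genes were higher and 11 lower than in the reference strain (71.0%, against 62.1% of all genes, of which 40.5% higher and 21.6% lower). PEX25, PEX6, ANT1 and PEX15 rose most and PEX2 fell most, and these are the 5 of the 31 genes that changed by at least 1.5-fold, against 22.1% of all genes. The median difference of the 31 genes was 0.10, and that of all genes was also 0.10. The arrays did not overlap for 23 of the 31 genes, against 61.6% of all genes.

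PEX25 (YPL112C), which remodels the peroxisomal membrane for growth and division, read 9.30, 9.39 and 9.21 in snf1Δ C-lim, against 8.498, 8.65 and 8.30 in reference C-lim. All snf1Δ arrays were above all reference arrays, and PEX25 rose by 0.82 ± 0.07 (adjusted p = 3.3e-08). PEX6 read 7.30, 7.39 and 7.26 in snf1Δ and 6.40, 6.61 and 6.75 in the reference strain, a rise of 0.73 ± 0.08 (adjusted p = 4.6e-07). PEX15 (YOL044W), the anchor of Pex6, read 8.37, 8.43 and 8.44 in snf1Δ and 7.89, 7.62 and 7.89 in the reference strain and rose by 0.61 ± 0.10 (adjusted p = 2.67e-05). Both measured genes of the export complex were therefore higher in snf1Δ. ANT1 (YPR128C) read 9.45, 9.84 and 9.64 in snf1Δ and 9.09, 9.08 and 8.90 in the reference strain, a rise of 0.62 ± 0.10 (adjusted p = 2.28e-05).

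The ubiquitin machinery again held genes that moved against each other. PEX2 read 8.79, 8.71 and 8.75 in snf1Δ C-lim and 9.48, 9.38 and 9.48 in reference C-lim, and fell by 0.70 ± 0.07 (adjusted p = 1.3e-07). PEX22 fell by 0.48 ± 0.06 and PEX4, which it anchors, fell by 0.15 ± 0.05, while PEX10 rose by 0.29 ± 0.05. Of the receptors, PEX5 rose by 0.48 ± 0.08 and PEX21 by 0.34 ± 0.08, PEX7 fell by 0.16 ± 0.05, and PEX18 differed by 0.39 ± 0.22 (adjusted p = 0.137). At the docking complex PEX13 rose by 0.52 ± 0.09, and PEX8, which joins the docking and RING finger complexes, fell by 0.39 ± 0.08. The size of the PEX13 rise includes reference replicate 11, which read 6.84, against 7.34 and 7.35 on the other reference arrays. PEX3 and PEX19 both fell, with differences of -0.51 ± 0.06 and -0.20 ± 0.06.

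Of the 9 genes of size and number, PEX25, PEX27 and PEX31 rose and PEX11, PEX29, PEX32 and PEX34 fell. PEX27 rose by 0.53 ± 0.13 and PEX31 by 0.33 ± 0.09, and those that fell differed by -0.26 for PEX11, -0.26 for PEX29, -0.24 for PEX32 and -0.36 for PEX34. DNM1 rose by 0.22 ± 0.07, and neither INP1, INP2, FIS1 nor VPS1 passed the test. PEX29 lies 2 genes from SNF1 on the chromosome, and the part of this position in its values was not tested. PEX29 differed by -0.26 in C-lim and by -0.02 ± 0.08 in N-lim. Some of these calls were lost without 1 array. PEX29 was lost without reference replicate 11 (-0.16, adjusted p = 0.0811), DNM1 without snf1Δ replicate 11 (adjusted p = 0.0553), and PEX7 without reference replicate 9 (-0.10) or snf1Δ replicate 11 (adjusted p = 0.0531 to 0.105). PEX4 was lost without reference replicate 9 or snf1Δ replicate 10 or 11 (adjusted p = 0.0719 to 0.0803) and with limma's trend and robust settings (0.0627), and its difference was -0.28 with renewed quantile normalization (0.000945), and PEX32 without reference replicate 9 or 11 or snf1Δ replicate 11 or 12 (adjusted p = 0.0533 to 0.106).

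The enzyme genes of the peroxisome were mostly lower in snf1Δ in C-lim. Of the 15 genes 12 fell, MDH3, for the peroxisomal malate dehydrogenase, rose by 0.22, and LPX1 and POT1 did not pass the test, with a median of -0.78. PXA1 and PXA2, the subunits of the fatty acid transporter, differed by -2.90 and -1.54, CTA1 by -2.24 and IDP3 by -1.34, all past the test. All 4 genes of peroxisome removal fell, with -1.501 for ATG36, -1.15 for ATG1, -0.78 for ATG8 and -0.21 for ATG11. The regulators PIP2 and OAF3 rose by 0.54 and 0.48, while OAF1 and ADR1 differed by 0.07 and 0.01. MDV1 and MYO2 rose by 0.28 and 0.48, LDB16 rose by 0.48, and RTN2, YOP1 and RTN1 fell, with differences of -4.0, -0.45 and -0.31.

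The same deletion was compared with the reference strain under ammonia limitation. In snf1Δ N-lim 3 genes were higher and 9 lower than in reference N-lim (38.7%, against 31.1% of all genes, of which 14.1% higher and 17% lower). None of the 31 genes changed by 1.5-fold, against 6.39% of all genes that did. PEX2 rose by 0.50 ± 0.07 (adjusted p = 3.36e-05), with 8.47, 8.38 and 8.35 in snf1Δ N-lim and 7.91, 7.88 and 7.91 in reference N-lim. PEX27 rose by 0.44 ± 0.13 and PEX28 by 0.39 ± 0.10. PEX10 fell by 0.43 ± 0.05 (adjusted p = 2.28e-06), with 7.54, 7.55 and 7.64 in snf1Δ N-lim and 8.004, 7.97 and 8.05 in reference N-lim. PEX2 and PEX10 encode ligases of the same complex, and neither group overlapped its reference.

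The other negative differences past the test in snf1Δ N-lim were -0.38 for PEX21, -0.35 for PEX7, -0.34 for PEX34, -0.25 for FIS1, -0.22 for DNM1, -0.21 for PEX22, -0.19 for PEX4 and -0.16 for PEX3. With the replicate number as a block PEX22 had an adjusted p of 0.056 and PEX3 one of 0.070, and PEX3 was also not past the test with median-centred arrays, without dim genes or with trend and robust settings (0.0559 to 0.0607). PEX3 was also lost without reference replicate 10 or 11 or snf1Δ replicate 9 or 10 (adjusted p = 0.105 to 0.14), DNM1 without reference replicate 9 or 10 or snf1Δ replicate 9 or 11 (0.0563 to 0.11), and PEX22 without replicate 11 of either strain (0.0594 to 0.1). PEX4 was lost without reference replicate 10 or snf1Δ replicate 9 (0.0507 to 0.0797), PEX27 without reference replicate 11 (0.0752) and PEX28 without reference replicate 10 (0.0607). Of the 15 enzyme genes, PXA2 rose by 0.60, DCI1, LPX1 and POT1 fell, with -0.59, -0.45 and -0.37, and 11 did not pass the test, with a median of -0.20, or -0.08 with values under the floor raised to it.

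Whether the effect of the SNF1 deletion differed between the media was tested as an interaction, the effect in N-lim minus that in C-lim. It differed for 17 of the 31 genes, with a positive difference for 5 and a negative one for 12 (54.8%, against 47.2% of all genes, of which 16.2% positive and 31% negative). PEX2 had the largest positive value among the 31 genes, 1.19 ± 0.10 (adjusted p = 2.76e-08). It was higher in snf1Δ in N-lim and lower in snf1Δ in C-lim. PEX10, PEX21 and DNM1 were lower in snf1Δ in N-lim and higher in snf1Δ in C-lim, with interactions of -0.73 ± 0.07 (adjusted p = 1.31e-07), -0.72 ± 0.12 (adjusted p = 5.29e-05) and -0.43 ± 0.10 (adjusted p = 0.00128). With arrays centred on their medians the DNM1 difference did not pass the test in either medium, with -0.20 in N-lim (adjusted p = 0.0567) and 0.17 in C-lim (adjusted p = 0.0652).

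Genes of several roles were higher in snf1Δ in C-lim and had small differences in N-lim. PEX6 had an interaction of -0.69 ± 0.12, PEX25 of -0.66 ± 0.11, PEX13 of -0.63 ± 0.13, PEX15 of -0.61 ± 0.14, ANT1 of -0.56 ± 0.14, PEX5 of -0.47 ± 0.12 and PEX31 of -0.42 ± 0.13. In N-lim the same genes differed between snf1Δ and the reference strain by 0.04, 0.15, -0.10, 0.00, 0.06, 0.01 and -0.09, none past the test. PEX25 read 8.90, 8.85 and 8.86 in snf1Δ N-lim and 8.73, 8.76 and 8.66 in reference N-lim. PEX6 read 7.22, 7.23 and 7.25 in snf1Δ N-lim and 7.16, 7.19 and 7.23 in reference N-lim. For both genes the N-lim groups were close together or overlapped. PEX15 read 7.66, 7.87 and 7.83 in snf1Δ N-lim and 7.79, 7.68 and 7.88 in reference N-lim. PEX13 read 7.43, 7.46 and 7.45 in snf1Δ N-lim and 7.54, 7.52 and 7.59 in reference N-lim, against 7.73, 7.68 and 7.68 in snf1Δ C-lim and 7.34, 7.35 and 6.84 in reference C-lim. The lowest of these, reference C-lim replicate 11, stands apart from the other arrays of its group.

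PEX22, PEX3, PEX34, PEX4 and PEX7 were lower in snf1Δ in both media, and PEX27 was higher in both. For PEX27, PEX34 and PEX4 the interaction was -0.09 ± 0.18, 0.02 ± 0.11 and -0.04 ± 0.08, none past the test. For PEX3 and PEX22 the fall was smaller in N-lim, with interactions of 0.35 ± 0.08 and 0.27 ± 0.09, and for PEX7 it was larger, with -0.19 ± 0.08 (adjusted p = 0.0493), a call that, fits without 1 array aside, was kept only with the mean of probe sets and lost under the other alternatives (adjusted p = 0.0723 to 0.242). PEX28 and PEX8 had interactions of 0.44 ± 0.15 and 0.32 ± 0.12, and FIS1 one of -0.35 ± 0.09. With arrays centred on their medians 8 interactions were positive and 11 negative, and with renewed quantile normalization 7 and 11. The positive count was 3 without reference C-lim replicate 9, snf1Δ C-lim replicate 11 or snf1Δ N-lim replicate 11, and the calls for PEX7, PEX8, PEX22 and PEX28 were lost in 10, 6, 3 and 3 of the 12 fits that left out 1 array, with adjusted p up to 0.129.

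**Figure D4:**
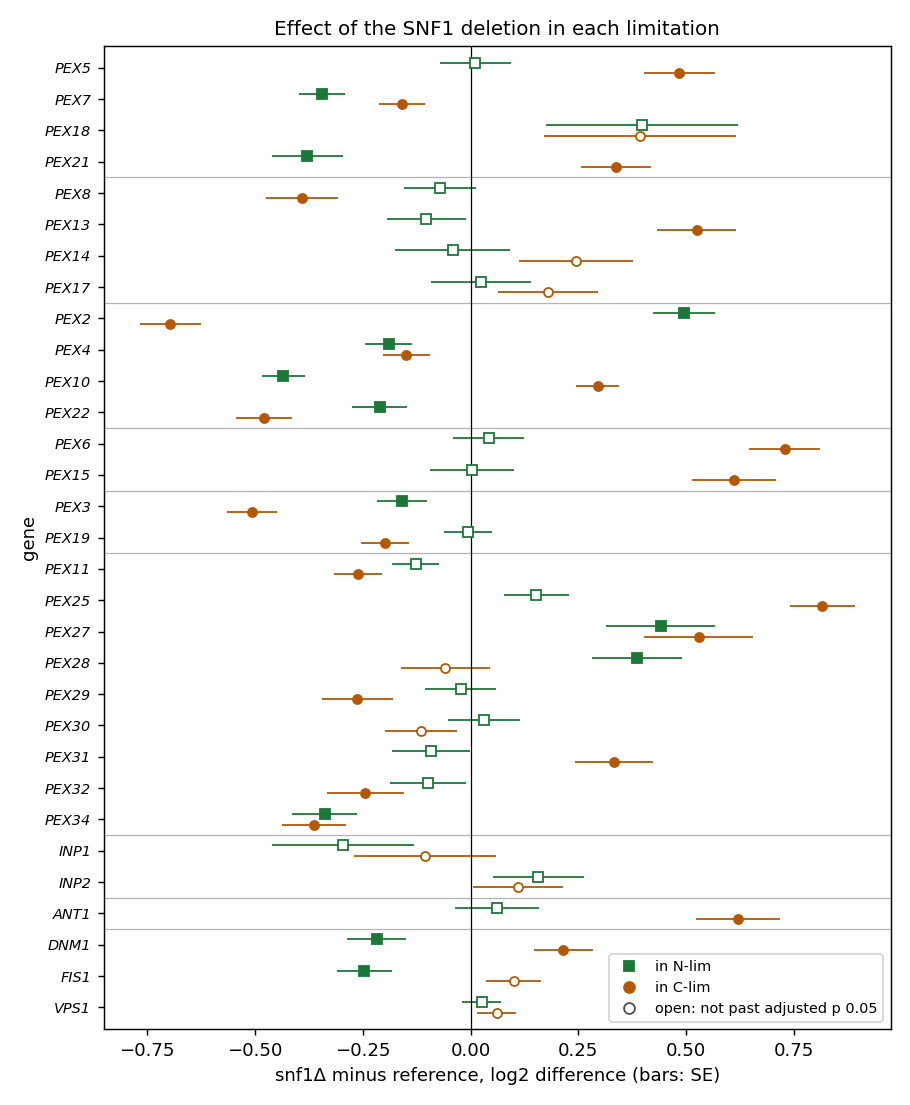
Log2 difference of snf1Δ minus reference for each of the 31 genes in N-lim (squares) and in C-lim (circles), with bars for the SE and open symbols for genes not past an adjusted p of 0.05, in the order of roles used in the heat map. PEX2 lies at 0.50 in N-lim and -0.70 in C-lim, PEX10 at -0.43 and 0.29, and PEX25, PEX6, ANT1 and PEX15 lie between 0.61 and 0.82 in C-lim.

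The loss of TOR1 alone was compared with the reference strain in each medium. In C-lim limma called 0 of the 31 genes, 4 had an unadjusted p under 0.05, and the smallest adjusted p was 0.315, for PEX13 (1.06% of all genes were called). The differences ran from -0.09 to 0.21, with SE between 0.05 and 0.22. In N-lim PEX2 alone was called (3.23%, against 2.92% of all genes, of which 0.716% higher), and 2 of the 31 genes had an unadjusted p under 0.05. PEX2 read 8.59, 8.49 and 8.38 in tor1Δ N-lim and 7.91, 7.88 and 7.91 in reference N-lim, without overlap, and rose by 0.58 ± 0.07 (adjusted p = 9.69e-05). In C-lim it read 9.34, 9.49 and 9.41 in tor1Δ and 9.48, 9.38 and 9.48 in the reference strain, and differed by -0.03 ± 0.07. The effect of the TOR1 deletion on PEX2 differed between the media by 0.61 ± 0.10 (adjusted p = 0.00433), and PEX2 was the only one of the 31 genes called in that test (0.973% of all genes were called, 0.275% with a positive difference). The call for PEX2 held without any 1 of the arrays in both tests.

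In snf1Δtor1Δ C-lim 11 of the 31 genes were higher and 8 lower than in reference C-lim (61.3%, against 61.4% of all genes, of which 42.7% higher and 18.8% lower). ANT1 rose most, by 1.10 ± 0.10 (adjusted p = 2.28e-08), with 10.20, 10.27 and 9.88 in snf1Δtor1Δ and 9.09, 9.08 and 8.90 in the reference strain. PEX25 read 9.19, 9.39 and 9.33 in snf1Δtor1Δ C-lim and rose by 0.82, PEX6 read 7.33, 7.38 and 7.22 and rose by 0.72, PEX15 read 8.62, 8.58 and 8.23 and rose by 0.67, and PEX13 read 7.85, 7.83 and 7.74 and rose by 0.63. These snf1Δtor1Δ arrays lay above all reference C-lim arrays given above. The size of the PEX13 rise includes reference C-lim replicate 11, which read 6.84, against 7.34 and 7.35 on the other reference C-lim arrays. PEX18 rose by 0.83 ± 0.22 (adjusted p = 0.00329), but its lowest array, 6.29, lay just under the highest of the reference strain, 6.30. PEX5, PEX31, DNM1, PEX17 and FIS1 rose by 0.46, 0.38, 0.37, 0.28 and 0.21. PEX2 read 8.66, 8.75 and 8.75 and fell by 0.72 ± 0.07, and the other negative differences past the test were -0.49 for PEX3, -0.41 for PEX22, -0.33 for PEX29, -0.30 for PEX11, -0.27 for PEX32, -0.22 for PEX34 and -0.19 for PEX7.

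The split between rises and falls in this comparison moved with the scaling, to 9 higher and 11 lower with median-centred arrays and 10 and 11 with renewed quantile normalization. With median-centred arrays FIS1 differed by 0.13 (adjusted p = 0.116), and with renewed quantile normalization PEX31 differed by 0.21 (adjusted p = 0.0335). PEX17, a docking component, was not past the test under either scaling or without reference replicate 9 or 11 or snf1Δtor1Δ replicate 1 or 2 (adjusted p = 0.0627 to 0.154), and PEX34 was not without reference replicate 11 or snf1Δtor1Δ replicate 3 (0.0556 to 0.0857). Of the 15 enzyme genes 12 fell, MDH3 rose by 0.28 and PCS60 and POT1 did not pass the test.

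In snf1Δtor1Δ N-lim 6 of the 31 genes were higher and 4 lower than in reference N-lim (32.3%, against 40.3% of all genes, of which 23.9% higher and 16.4% lower). PEX2 read 8.64, 9.004 and 8.86 in snf1Δtor1Δ N-lim and 7.91, 7.88 and 7.91 in reference N-lim, a rise of 0.93 ± 0.07 (adjusted p = 1.25e-08). PEX28 read 6.62, 6.43 and 6.56 in snf1Δtor1Δ N-lim and 6.07, 5.66 and 5.90 in reference N-lim, a rise of 0.66 ± 0.10 (adjusted p = 6.59e-05). In both genes the groups did not overlap, and these 2 genes were the ones past 1.5-fold, against 8.88% of all genes. PEX27, INP2, PEX25 and PEX6 rose by 0.46, 0.42, 0.33 and 0.27, and PEX10, PEX7, PEX21 and FIS1 fell, with -0.34, -0.24, -0.22 and -0.19. With renewed quantile normalization 4 were higher and 6 lower, and PEX27 and PEX6 were not past the test (adjusted p = 0.0556 and 0.054). The count of falls was 2 without snf1Δtor1Δ replicate 1 or 3, FIS1 was also lost without reference replicate 11 and PEX21 without reference replicate 9 or 10 (adjusted p = 0.0525 to 0.136), and PEX27 and PEX6 were lost without snf1Δtor1Δ replicate 1 (adjusted p = 0.052 and 0.0981).

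What the loss of TOR1 added in a strain already lacking SNF1 was tested as snf1Δtor1Δ against snf1Δ. In C-lim ANT1 and PEX30 were higher and PEX27, PEX10 and PEX21 lower (16.1%, against 17.2% of all genes, of which 10.8% higher and 6.44% lower). PEX27 fell by 0.68 ± 0.13 (adjusted p = 0.00126), with 6.97, 6.78 and 6.78 in snf1Δtor1Δ and 7.41, 7.60 and 7.55 in snf1Δ, without overlap. ANT1 rose by 0.48 ± 0.10 (adjusted p = 0.00263), with 10.20, 10.27 and 9.88 in snf1Δtor1Δ and 9.45, 9.84 and 9.64 in snf1Δ. PEX10 fell by 0.28 ± 0.05 (adjusted p = 0.000861), with 7.77, 7.71 and 7.58 in snf1Δtor1Δ and 7.93, 8.01 and 7.97 in snf1Δ. The other calls were PEX30 at 0.27 ± 0.08 and PEX21 at -0.25 ± 0.08. PEX30 was lost under both other scalings and without snf1Δ replicate 11 or 12 or snf1Δtor1Δ replicate 1 or 2 (adjusted p = 0.079 to 0.157), and PEX21 without any snf1Δ replicate or snf1Δtor1Δ replicate 1 or 2 (0.0525 to 0.177). In N-lim PEX2 alone was called (3.23%, against 10.6% of all genes, of which 7.51% higher), with a rise of 0.44 ± 0.07 (adjusted p = 0.00088), and 9 of the 31 genes had an unadjusted p under 0.05.

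Whether both deletions together differed from the sum of their single effects was tested as a genetic interaction. In C-lim 3 of the 31 genes were called (9.68%, against 5.74% of all genes, of which 2.88% positive and 2.86% negative). PEX27 had an interaction of -0.82 ± 0.18 (adjusted p = 0.00976). Against the reference strain it differed by -0.15 in snf1Δtor1Δ, by 0.53 in snf1Δ and by 0.14 in tor1Δ. This call held without any 1 of the 12 arrays. PEX10 had an interaction of -0.27 ± 0.07 (adjusted p = 0.0271), which was lost without reference replicate 9, snf1Δ replicate 11, tor1Δ replicate 7 or 8 or snf1Δtor1Δ replicate 3 (adjusted p = 0.052 to 0.0752). ANT1 had an interaction of 0.50 ± 0.14 (adjusted p = 0.0376), which held only without reference replicate 11, snf1Δ replicate 11 or snf1Δtor1Δ replicate 3 and was lost without any other of the 12 arrays (adjusted p = 0.0507 to 0.108). In N-lim limma called 0 of the 31 genes (0.697% of all genes), 7 had an unadjusted p under 0.05, and the smallest adjusted p was 0.0914, for PEX10. PEX2 differed from additive effects by -0.15 ± 0.10 in N-lim (adjusted p = 0.557) and by 0.00 ± 0.10 in C-lim.

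The order of the group means of PEX2 gathers these values. It was lowest in reference N-lim (7.90), then came snf1Δ N-lim (8.40), tor1Δ N-lim (8.48), snf1Δtor1Δ C-lim (8.72), snf1Δ C-lim (8.75), snf1Δtor1Δ N-lim (8.83), tor1Δ C-lim (9.42) and reference C-lim (9.44). The SD lay between 0.02 and 0.18. The arrays of snf1Δ and tor1Δ N-lim overlapped, as did those of snf1Δtor1Δ C-lim, snf1Δ C-lim and snf1Δtor1Δ N-lim, and those of tor1Δ and reference C-lim.

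Over the 8 group means some of the 31 genes had like profiles, given here as a description of 8 points that share arrays and scaling. PEX3 and PEX22 correlated with r = 0.971, PEX5 and PEX15 with 0.971, DNM1 and FIS1 with 0.957, and FIS1 and PEX21, which differ in role, with 0.955. These are examples from the upper end of all pairs of the 31 genes. That end also holds PEX5 with PEX17 (0.958) and PEX3 with PEX32 (0.956). PEX11 and PEX31 had opposed profiles, with r = -0.977. The paralogous pair PEX18 and PEX21 both stood lower in N-lim than in C-lim in every strain, and within the family of PEX11, PEX25 and PEX27 only PEX25 stood higher in N-lim in the reference strain.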

How the data were processed

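Transcript levels were measured on 24 Affymetrix yeast arrays, 1 per culture, 3 in each of 8 groups taken from the titles and genotype labels. The deposited values are on the log2 scale. Per the submitters' processing notes the authors used RMA and affy. Neither the versions nor which arrays were normalized together is given in the sources used here. The number of arrays limits the precision, and the p-values rest on cultures that the labels call biological replicates.

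The platform table gives 1 gene for 5498 of the 5716 probe sets and several genes for 0, and the other 218, which it does not list, were left out. The brightest probe set was used for 47 genes with several, which left 5449 genes. Genes are named by the symbols of the platform table, of which 12 differ from those in RefSeq's table of assembly R64. No genome build comes with the values, so no coordinates are given. A limma model (version 3.58.1, R 4.3.3) with a mean for each of the 8 groups was fitted to every gene, with 16 residual and 1.71 prior degrees of freedom and no block, and p-values were adjusted by Benjamini-Hochberg over all genes within each of 16 comparisons, with a threshold of 0.05. The code was tested on simulated data. Fold bounds use a floor of log2 3. All 31 genes may be named. Array values are given for genes past the threshold with a change of at least 1.5-fold, and of another list up to 4 genes. Those of INP1 and PEX10, which lie outside this rule, were added after their values were seen. The members, lists and floor were chosen with earlier results of these data known. Comparisons with the same reference arrays share their deviations.

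Equal replicate numbers in the titles were taken to pair cultures where all 3 pairs of arrays deviated together with r over 0.1. This held for reference N-lim with reference C-lim (0.231 to 0.372), for snf1Δ with reference in N-lim (0.169 to 0.279) and for snf1Δtor1Δ N-lim with C-lim (0.120 to 0.199), and, of groups compared only within interactions, for snf1Δ N-lim (0.258 to 0.387) and tor1Δ N-lim (0.235 to 0.402) with reference C-lim. The block was a fixed term except for snf1Δtor1Δ against the reference or snf1Δ and for the genetic interactions. There it was a random term with a correlation of 0.045, because no other strain shares the replicate numbers of snf1Δtor1Δ. In these comparisons replicate number cannot be told apart from strain, so a call kept with the block is no test of pairing. Replicates 7 and 8 occur only in tor1Δ C-lim, so with the fixed block its mean rests on replicate 9. A call kept or lost with the block in comparisons with tor1Δ C-lim is therefore no test of pairing either. Blocked values stand beside results only where they change a call. Alternatives were the block, 2 other scalings, a filter on dim genes, the mean of probe sets, trend and robust settings, a fit of the compared groups only, and leaving out each array.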

Additional observations from a re-analysis of the deposited data

Results flagged for a closer look

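These results were picked out because the effect of the same deletion differed between 2 settings by a test of the difference itself, with limma and Benjamini-Hochberg adjustment over all genes. The effect of the SNF1 deletion in N-lim minus that in C-lim was positive for PEX2 (1.19), PEX28 (0.44), PEX3 (0.35), PEX8 (0.32) and PEX22 (0.27). It was negative for the ligase gene PEX10 (-0.73), for the receptor genes PEX21 (-0.72), PEX5 (-0.47) and PEX7 (-0.19), and for the export genes PEX6 (-0.69) and PEX15 (-0.61). It was also negative for PEX25 (-0.66), PEX13 (-0.63), ANT1 (-0.56), DNM1 (-0.43), PEX31 (-0.42) and FIS1 (-0.35). The effect of the TOR1 deletion in N-lim minus that in C-lim was positive for PEX2 (0.61). In C-lim, the effect of the TOR1 deletion in the snf1Δ background minus that in the SNF1 background was -0.82 for PEX27, -0.27 for PEX10 and 0.50 for ANT1. Of 12 fits that left out 1 array, the last 2 calls were lost in 5 and 9. For the SNF1 deletion by medium, the calls for PEX7, PEX8, PEX22 and PEX28 were lost in 10, 6, 3 and 3. PEX2 was the only one of the 31 genes in both lists of effects that differed between media.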

How the results depend on the processing

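Of 165 calls of the 31 genes, none changed direction under any alternative. Only the other scalings, the replicate block and leaving out an array could change a direction. Each difference of group means stays the same with trend and robust settings, without dim genes and with only the compared groups in the fit. It also stays the same with the mean of probe sets, because each of the 31 genes has 1 probe set. That setting reaches these calls only through the other genes. The calls lost were 25 with only the compared groups in the fit, 14 with the replicate block, 10 with median-centred arrays, 6 with renewed quantile normalization, 3 with trend and robust settings, 0 with the mean of probe sets and 3 of 140 without dim genes. Of 1116 calls refitted without 1 array 105 were lost. The fit of the compared groups only lost INP1, PEX7, PEX13, PEX22 and PEX25 (reference strain, N-lim against C-lim), DNM1, PEX30 and VPS1 (the same in tor1Δ), PEX17 and PEX29 in C-lim and PEX6 and PEX21 in N-lim (snf1Δtor1Δ against reference), PEX7 and PEX29 (snf1Δ against reference in C-lim), ANT1, PEX10, PEX21 and PEX30 in C-lim and PEX2 in N-lim (snf1Δtor1Δ against snf1Δ), PEX10 and ANT1 (genetic interaction in C-lim) and PEX7, PEX8, PEX22 and PEX28 (SNF1 deletion by medium). That fit has fewer arrays to estimate the spread, while the main fit shares 1 estimate over all 8 groups. For the genes lost in the reference strain, the SD in reference C-lim was above the SD over the 8 groups. It was 0.46 against 0.21 for INP1, 0.09 against 0.06 for PEX7 and 0.29 against 0.12 for PEX13. For PEX22 it was 0.14 against 0.08, and for PEX25 0.18 against 0.09. The cause of the losses, here and under the other alternatives, was not tested.

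Counts that moved by over 1.5 times were these. For N-lim against C-lim, 4 genes were higher in the reference strain in the fit of the compared groups only, and 1 each in snf1Δ and in snf1Δtor1Δ without dim genes, of which 6 of the 31 are left out. For snf1Δ against reference in N-lim 5 were higher in the fit of the compared groups only. For snf1Δtor1Δ against snf1Δ in C-lim 1 was higher under either other scaling, and 0 higher and 1 lower in the fit of the compared groups only, which in N-lim called 0. For the genetic interaction in C-lim 1 was negative without dim genes, and 0 were positive and 1 negative in the fit of the compared groups only. For the SNF1 deletion by medium 8 were positive with median-centred arrays and 2 in the fit of the compared groups only.

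Leaving out 1 array, genes higher in N-lim numbered 6 to 7 in the reference strain, 2 to 3 in snf1Δ, 4 to 5 in tor1Δ and 3 to 5 in snf1Δtor1Δ, and genes lower 12 to 14, 15 to 18, 14 to 16 and 12 to 13. Against the reference, snf1Δ had 11 to 12 higher and 8 to 13 lower in C-lim and 2 to 3 and 6 to 9 in N-lim, and snf1Δtor1Δ had 10 to 12 and 7 to 9 in C-lim and 4 to 7 and 2 to 4 in N-lim. Against snf1Δ, snf1Δtor1Δ had 1 to 3 higher and 2 to 3 lower in C-lim and 1 to 2 higher in N-lim. The SNF1 deletion by medium gave 3 to 7 positive and 11 to 12 negative, and the genetic interaction in C-lim 0 to 1 positive and 1 to 2 negative.

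Replicate numbers gave correlations of deviations between -0.305 and 0.437 over 33 pairs of arrays, 22 of them over 0.1, and do not pair snf1Δ C-lim with other groups. The block lost PEX13 and PEX14 (N-lim against C-lim in snf1Δ), PEX5, PEX19, PEX30, PEX32 and VPS1 (the same in tor1Δ), PEX32 (snf1Δ in C-lim) and PEX7, PEX8 and PEX22 (SNF1 deletion by medium), beside INP1, PEX3 and PEX22 as given above. The block moved no count of calls by over 1.5 times, and in comparisons of snf1Δtor1Δ with other strains it could not test pairing. In comparisons with tor1Δ C-lim it rests on replicate 9 of that group, so the losses in tor1Δ are no test of pairing. Signal near the lower end of the scale limits PEX18.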
